A study of Rattus norvegicus with 12 samples.

Results

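The genes followed here take up, break down or sense catecholamines in the heart: Maoa and Maob, Slc22a3, Adra1a, Adra1b and Adrb1, which make 6 of the 34322 genes in the count tables of rats given the kinase inhibitor sorafenib. They were taken by symbol from the tables of both days. The members were chosen by name with measured values in view, namely the differences in count between sorafenib and water in these same libraries, so each contrast is a description and not independent evidence. Male Sprague-Dawley (SD) rats of 180 to 200 g received 50 mg/kg sorafenib by gavage each day, or an equal volume of deionized water, for 14 or 28 days, and total heart RNA was sequenced after removal of ribosomal RNA. The 4 groups were sorafenib at day 14, water at day 14, sorafenib at day 28 and water at day 28, with 3 libraries in each. All 4 groups were males of the same starting weight and all were gavaged. The labels give no age, name no chamber of the heart and do not say whether each library came from a separate rat. The p-values therefore measure the spread between these libraries.

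Of the 12 libraries, 11 held between 13746366 and 26403196 counts, and sorafenib day 28 replicate 3 held 1036483. In that shallow library 16908 genes had a count, against 21899 to 22748 in the other day 28 libraries, and 1 count was worth 0.826 CPM (the usual count scaled for library size, here with TMM normalization over all 12 libraries). Its members rest on 7 counts of Maob, 9 of Slc22a3, 21 of Adrb1, 37 of Adra1b, 119 of Adra1a and 140 of Maoa. Markers of the labelled tissue were abundant, and 8 cardiomyocyte genes summed to between 36600 and 87700 CPM in every library. Th, the rate-limiting enzyme of catecholamine synthesis in sympathetic neurons, had 3 counts over all 12 libraries and 0 in the sorafenib libraries. The cell bodies of those neurons lie in ganglia outside the heart muscle.

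Noradrenaline released by cardiac sympathetic nerves binds adrenergic receptors on heart cells. Adrb1 encodes the main beta receptor of cardiomyocytes, which acts through Gs, adenylyl cyclase and protein kinase A to raise rate and force. Adra1a and Adra1b encode alpha-1 receptors, which act through Gq and phospholipase C. The signal ends by uptake and breakdown: Slc22a3 encodes the organic cation transporter OCT3, which takes catecholamines into non-neuronal cells, and Maoa and Maob encode the monoamine oxidases of the outer mitochondrial membrane, which deaminate them. MAO-A prefers noradrenaline and serotonin as substrates, and its reaction yields hydrogen peroxide.

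In the assembly of the deposited tables, mRatBN7.2, Maoa and Maob lie side by side on chromosome X. Maoa spans chrX:6032172-6098308 on the minus strand with 15 exons, and Maob spans chrX:5907327-6010996 on the plus strand with 15 exons. Their 3′ ends face each other across 21175 bases. Slc22a3 is at chr1:48235476-48324617 on the plus strand with 11 exons. The receptors are at chr15:40830125-40935902 on the plus strand (Adra1a), chr10:28255025-28373418 on the minus strand (Adra1b) and chr1:255772217-255773617 on the plus strand (Adrb1, a single exon). No exon of the 6 genes overlaps an exon of another annotated gene.

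Promoter sequences are shown for the pair of oxidases, which are neighbours with different levels, and for Slc22a3. At day 28 Slc22a3, Maoa and Adra1a were lower without overlap, as were 11.9% of all genes. The sequences are the 250 bases before the transcription start in RefSeq on assembly GRCr8, a later build than that of the counts. There 5 of the 6 members had an entry, all but Adra1a. The windows are chrX:8681373-8681622 on the minus strand for Maoa, chrX:8490155-8490404 on the plus strand for Maob and chr1:50782968-50783217 on the plus strand for Slc22a3, each written 5′ to 3′ on the strand of the gene. Capitals mark the GC box GGGCGG read on either strand.
Maoa: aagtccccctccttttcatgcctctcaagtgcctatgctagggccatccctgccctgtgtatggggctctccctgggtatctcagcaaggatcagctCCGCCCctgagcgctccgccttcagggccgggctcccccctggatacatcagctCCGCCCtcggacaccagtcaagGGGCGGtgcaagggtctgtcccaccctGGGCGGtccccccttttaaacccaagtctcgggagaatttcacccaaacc
Maob: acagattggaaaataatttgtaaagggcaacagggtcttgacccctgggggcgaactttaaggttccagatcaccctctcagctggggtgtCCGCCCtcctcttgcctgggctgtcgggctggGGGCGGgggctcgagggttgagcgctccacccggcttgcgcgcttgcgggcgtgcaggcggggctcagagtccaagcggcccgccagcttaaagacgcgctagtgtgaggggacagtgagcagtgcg
Slc22a3: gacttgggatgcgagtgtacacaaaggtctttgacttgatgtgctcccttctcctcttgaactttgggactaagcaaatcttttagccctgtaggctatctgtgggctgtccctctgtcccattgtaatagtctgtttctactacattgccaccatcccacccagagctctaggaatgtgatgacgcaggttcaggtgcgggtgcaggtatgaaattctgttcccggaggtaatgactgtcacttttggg
The Maoa window held 4 GC boxes and the Maob window held 2, while none was found in the Slc22a3, Adra1b or Adrb1 windows. Over all 27457 windows of that length in the table, 32.4% held at least 1 GC box and 8.09% held 3 or more. G and C made up 62.4% of the Maoa window, 63.6% of the Maob window and 48.8% of the Slc22a3 window. The letters TGACG, on either strand, occurred once each before Slc22a3 and Adrb1 and in 19% of all windows. Neither CACGTG nor TATAAA occurred in the 5 windows, and they occurred in 5.79% and 13.1% of all windows. These matches describe letters in a window and are not binding sites.

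Per length of exon, Maoa was the most abundant of the 6 genes in these hearts. Over the 12 libraries its level averaged 95.8 CPM per kilobase, followed by Adra1a at 19.1, Adra1b at 12.8, Adrb1 at 12.1, Slc22a3 at 2.97 and Maob at 2.61. The lowest Maoa library, at 33.0 CPM per kilobase, was above the highest Adra1a library, at 25.1. The ranges of Adra1a, Adra1b and Adrb1 overlapped one another, as did those of Slc22a3 and Maob. Adrb1 was above Slc22a3 in all libraries, with a lowest value of 9.37 CPM per kilobase against a highest of 4.60. The exon length of Adra1a is 12428 bases, the union over its annotated transcripts, and that of Adrb1 is 1401 bases, so levels per length depend on how complete each gene model is. Maoa stood above Maob by a factor of 17.9 to 23.7 in the sorafenib day 14 libraries and 11.4 to 76.8 in the water day 14 libraries. At day 28 the factor was 22 to 49 in sorafenib libraries and 44.1 to 75.8 in water libraries, and these ranges overlapped.

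**Figure D1:**
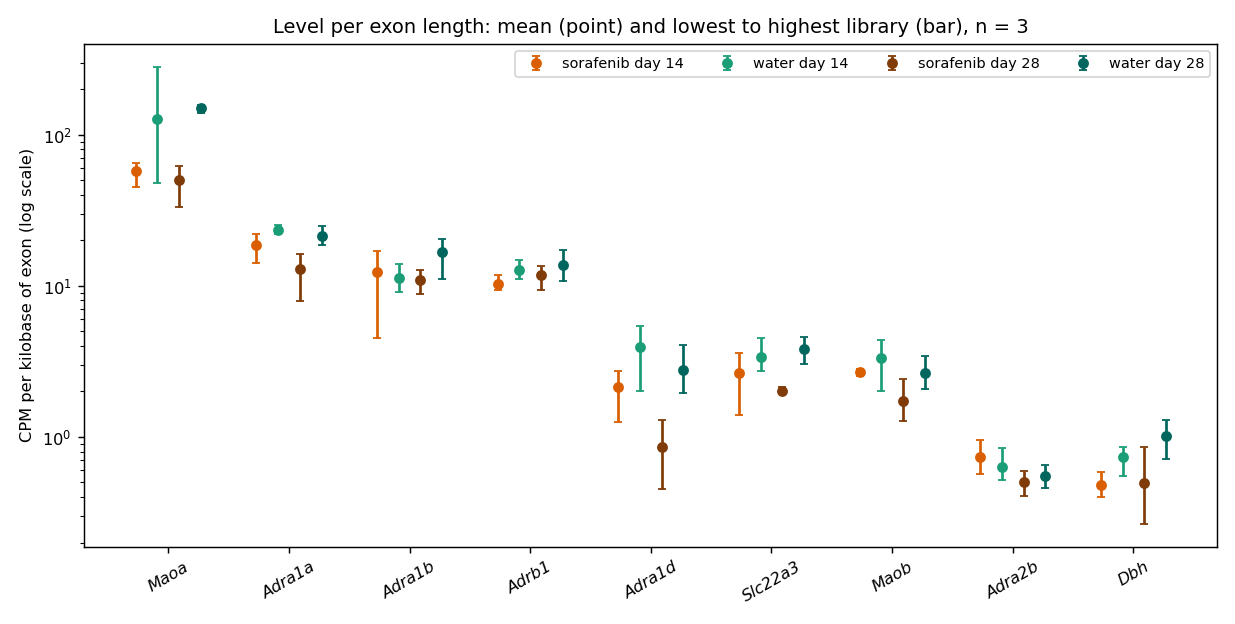
Level per exon length (CPM per kilobase, log axis) of the 6 members and 3 related genes in the 4 groups; points are group means of 3 libraries and bars run from the lowest to the highest library. Maoa lies above every other gene shown in group mean. Group means run from 2.02 to 3.82 CPM per kilobase for Slc22a3 and from 1.73 to 3.35 for Maob, each lowest in sorafenib at day 28.

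After 28 days of sorafenib all 6 genes were lower in mean than with water, Maoa most of all, but none passed the threshold across all genes. With edgeR's quasi-likelihood test and Benjamini-Hochberg adjustment over all genes, 0 of 6 members were called at day 28, where the share called among all 17021 genes was also 0%. At an unadjusted p below 0.05, 4 of 6 were lower, against 7.83% of all genes, and 3 of 6 were lower with no overlap between the libraries of the groups, against 11.9% of all genes. DESeq2 called 1 of 6, Maoa, against 1.74% of all genes. All 6 fold changes were below 0, as were 50.2% over all genes. The median log2 fold change of the 6 was -0.72, and that of all genes was 0.00. At day 28 the sum of 8 smooth muscle and pericyte markers, at 673 to 844 CPM with sorafenib and 879 to 931 CPM with water, and that of 10 sympathetic neuron markers, at 5.45 to 7.98 CPM with sorafenib and 8.69 to 11 CPM with water, were also lower without overlap, and their part in these counts was not tested. Members of the first list went both ways at day 28: Abcc9, the largest contributor, averaged 365 CPM with sorafenib and 461 CPM with water, while the smooth muscle genes Acta2, Myh11, Tagln and Cnn1 were higher in mean with sorafenib, with overlap. At day 14, 0 of 6 were called by either tool, against 0% of 17406 genes by edgeR and 2.98% by DESeq2. None had an unadjusted p below 0.05 at day 14, where 14% of all genes did, and 5 of 6 had a fold change below 0, against 49.8% of all genes. The day 14 median was -0.31, against 0.00 over all genes.

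Averaged over both days in a fit of all 4 groups, 0 of 6 passed with edgeR and 2 of 6, Maoa and Adra1a, with DESeq2, against 4.41% and 10.7% of all genes. The edgeR share was 2.41% for lower and 2% for higher genes. At an unadjusted p below 0.05, 4 of 6 were lower in that average, against 13.2% of all genes. All 6 averaged fold changes were below 0, as were 50.8% of all genes, with a median of -0.54 for the 6 and -0.01 for all genes. Since the members were chosen with these contrasts known, nothing is read from these shares beyond the counts. In RNA of whole tissue, fewer cells of a type and less RNA per cell cannot be told apart.

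**Figure D2:**
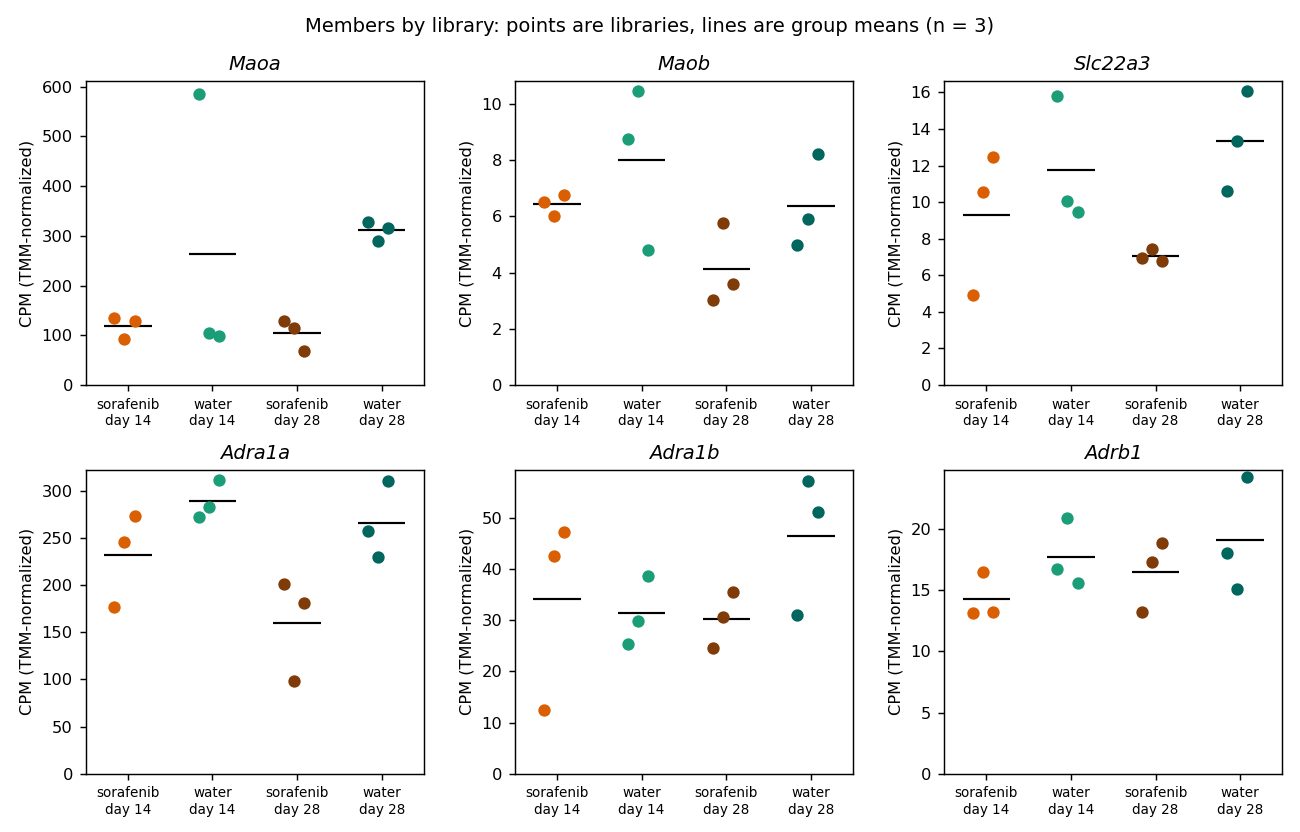
TMM-normalized CPM of each member in each library (points) with the group mean (line), 3 libraries per group; each panel has its own axis from 0. At day 28 the sorafenib points of Maoa, Slc22a3 and Adra1a all lie below the water points, and at day 14 a single water library stands at 585 CPM of Maoa.

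Maoa showed the largest difference of the 6 at day 28. Its level was 129, 116 and 68.8 CPM in the sorafenib day 28 libraries, against 329, 289.9 and 316 CPM in the water day 28 libraries. Every sorafenib library was below every water library, and the means were 105 ± 31.8 CPM with sorafenib and 312 ± 19.8 CPM with water (SD, n = 3 each). The difference was a log2 fold change of -1.54 ± 0.24 (SE), a level 0.343 times that of water. The adjusted p was 0.118 with edgeR, where Maoa ranked 11 of 17021 genes by p, and 3.27e-06 with DESeq2. Without the shallow library it was -1.64 (edgeR adjusted p = 0.122). It passed the edgeR threshold when no filter on low counts was used (-1.57, adjusted p = 0.00444).

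At day 14 the Maoa comparison rested on 1 water library. The level was 135, 93.4 and 129 CPM in the sorafenib day 14 libraries, against 585, 104 and 99.2 CPM in the water day 14 libraries. Water replicate 2, with 11183 Maoa counts, stood alone, and the other water libraries lay inside the sorafenib range. The means were 119 ± 22.6 CPM with sorafenib and 263 ± 279 CPM with water (SD, n = 3 each), and the log2 fold change was -1.13 ± 0.72 (edgeR adjusted p = 0.525). Without water replicate 2 it was 0.23 ± 0.19 (edgeR adjusted p = 0.711), the opposite direction. That library also had the highest myeloid marker sum of its day, 165 CPM, against 46.7 to 118 CPM in sorafenib and 93.2 and 99.0 CPM in the other water libraries. The part of those markers in the Maoa value was not tested.

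Averaged over both days, the Maoa log2 fold change was -1.36 ± 0.38 (adjusted p = 0.0564 with edgeR and 0.0442 with DESeq2). It was -0.65 without water day 14 replicate 2 (edgeR adjusted p = 0.061). Without water day 14 replicate 7 it was -1.55, and it then passed the threshold (edgeR adjusted p = 0.0393). The sign of the average was below 0 in each of the 18 alternatives tried.

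**Figure D3:**
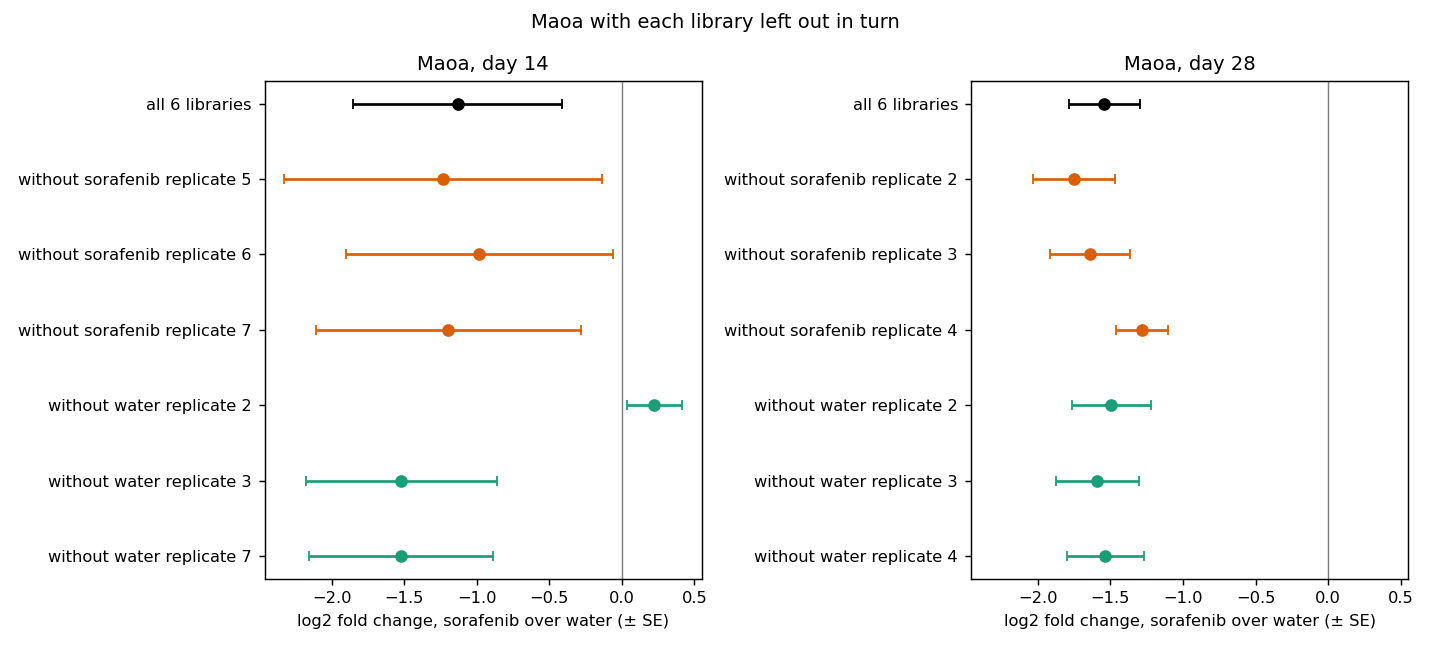
Log2 fold change of Maoa (sorafenib over water, ± SE) at day 14 (left) and day 28 (right), with all 6 libraries of the day in black and with each sorafenib (orange) or water (green) library left out in turn. At day 28 the values stay between -1.75 and -1.28, and at day 14 the value without water replicate 2 is 0.23.

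Maob, the second oxidase, was measured at low counts. Its level was 3.03, 5.78 and 3.59 CPM in the sorafenib day 28 libraries, against 4.97, 5.90 and 8.22 CPM in the water day 28 libraries. The groups overlapped, since the sorafenib library of 5.78 CPM, the shallow one with 7 counts, exceeded the lowest water library. This gave a log2 fold change of -0.76 ± 0.36 (edgeR adjusted p = 0.359). At day 14 Maob had 6.53, 6.0 and 6.78 CPM with sorafenib, against 8.74, 10.4 and 4.8 CPM with water, so the sorafenib values lay inside the water range. At day 14 the log2 fold change was -0.31 ± 0.27 (edgeR adjusted p = 0.635) and the average over both days was -0.57 ± 0.22 (edgeR adjusted p = 0.142).

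Slc22a3, the extraneuronal uptake transporter, was lower in every sorafenib day 28 library. It had 6.93, 7.43 and 6.78 CPM with sorafenib, against 10.6, 13.3 and 16.1 CPM with water at day 28. The libraries did not overlap, at 7.05 ± 0.338 CPM with sorafenib against 13.3 ± 2.74 CPM in water (SD, n = 3 each). The value of 7.43 CPM is 9 counts in the shallow library, where 1 count was worth 0.826 CPM. The sorafenib SD is smaller than that step and is no measure of precision. The log2 fold change was -0.91 ± 0.25, or 0.532 times the water level, with an unadjusted p of 0.00403 and an adjusted p of 0.192 in edgeR. It was -0.95 without the shallow library. At day 14 the level was 4.90, 10.6 and 12.5 CPM with sorafenib, against 15.8, 10.04 and 9.48 CPM with water, and the groups overlapped. At this day the log2 fold change was -0.34 ± 0.33 (edgeR adjusted p = 0.669), and it was -0.03 without sorafenib replicate 5, the library of 4.90 CPM. The average over both days was -0.64 ± 0.22 (edgeR adjusted p = 0.102).

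The other genes of breakdown and uptake did not share one direction. Of 12 listed genes 9 were tested, and in the average over both days 1 rose, 0 fell and 8 did not pass, with a median log2 fold change of 0.01. Of all genes, 2% were called higher and 2.41% lower in that average. The gene that rose was Sult1a1, a phenol sulfotransferase. It had 60.6, 81.6 and 63.1 CPM in the sorafenib day 14 libraries against 31.2, 11.6 and 23.0 CPM in the water day 14 libraries. At day 28 it had 58.2, 23.9 and 40.6 CPM with sorafenib against 33.4, 30.4 and 25.4 CPM with water. The groups did not overlap at day 14, for which the share over all genes is not given here, and did at day 28. Its averaged log2 fold change was 1.09 ± 0.22 (edgeR adjusted p = 0.0215). The call was lost without sorafenib day 14 replicate 6 (1.01, adjusted p = 0.0541) and without sorafenib day 28 replicate 2 (0.93, adjusted p = 0.0807), and held in the other 16 alternatives.

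After Sult1a1, the aldehyde reductase Akr1a1 had the next smallest p in the average, at -0.37 ± 0.12 (edgeR adjusted p = 0.0823). At day 28 the pair of smallest p was the aldehyde dehydrogenase Aldh1a1, at -1.14 ± 0.36, and Akr1a1, at -0.44 ± 0.17 (edgeR adjusted p = 0.239 and 0.296). At day 14, Sult1a1 at 1.65 ± 0.30 was followed by the aldose reductase Akr1b1 at -0.36 ± 0.19 (edgeR adjusted p = 0.114 and 0.443).

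Transporters related to Slc22a3 were scarce. Over all 12 libraries there were 9 counts of Slc22a2, 49 of the plasma membrane monoamine transporter Slc29a4 and 16 of the neuronal noradrenaline transporter Slc6a2, which were too few to test. Per length of exon, Slc22a3 was the most abundant of these uptake genes in every group mean.

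The synthesis and storage list, 8 genes of which 6 were tested, had 0 calls in each comparison. Dbh, which makes noradrenaline from dopamine, averaged 1.12 ± 0.708 CPM with sorafenib and 2.29 ± 0.65 CPM with water at day 28 (SD, n = 3 each). Its averaged log2 fold change was -0.76 ± 0.32 (edgeR adjusted p = 0.163). Pnmt, which makes adrenaline from noradrenaline, stood at 0.66 ± 0.29 in the average (edgeR adjusted p = 0.185) and at 0.95 ± 0.46 at day 28 (0.362). At day 14 the genes of smallest p were Cyb561, a vesicle cytochrome, at 0.55 ± 0.21 and Dbh at -0.61 ± 0.36, and at day 28 Ddc, the decarboxylase that makes dopamine, followed Pnmt at -0.37 ± 0.23.

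Among the receptors, Adra1a was lower in every sorafenib day 28 library. Its level was 201, 98.2 and 182 CPM in the sorafenib day 28 libraries, against 257, 229.7 and 310.5 CPM in the water day 28 libraries. The lowest value was the shallow library, and no sorafenib library reached a water one. Sorafenib over water, the log2 fold change was -0.68 ± 0.24, with an unadjusted p of 0.0176 and an adjusted p of 0.271 in edgeR, and it was -0.47 without the shallow library. At day 14 Adra1a had 177, 245 and 274 CPM with sorafenib, against 272, 283 and 312 CPM with water, and only the highest sorafenib library passed the lowest water library. The day 14 log2 fold change was -0.32 ± 0.18 (edgeR adjusted p = 0.46). The averaged value of -0.52 ± 0.17 had an adjusted p of 0.0818 with edgeR and 0.0303 with DESeq2.

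The lowest Adra1a library of each day was also the lowest in cardiomyocyte markers, which summed to 36600 CPM in sorafenib day 14 replicate 5 and 43400 CPM in the shallow sorafenib day 28 library. The 8 markers ranged up to 56700 CPM with sorafenib and from 44200 to 56300 CPM with water at day 14, and up to 74900 CPM with sorafenib and from 58700 to 87700 CPM with water at day 28. Their part in the Adra1a result was not tested.

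Adra1b gave values of either sign. At day 28 it had 24.6, 30.5 and 35.4 CPM with sorafenib, against 31.1, 57.1 and 51.2 CPM with water, and 1 sorafenib library exceeded the lowest water library. Its log2 fold change was -0.59 ± 0.24 (edgeR unadjusted p = 0.0324, adjusted p = 0.304). At day 14 it had 12.5, 42.5 and 47.2 CPM with sorafenib, against 25.4, 29.9 and 38.6 CPM with water, so the sorafenib libraries lay on both sides of the water range. The day 14 log2 fold change was 0.12 ± 0.44 (edgeR adjusted p = 0.927) and was 0.52 without sorafenib replicate 5, the lowest library. The average over both days was -0.25 ± 0.27 (edgeR adjusted p = 0.593), and it was -0.03 without sorafenib day 14 replicate 5.

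Adrb1 differed least between the groups at day 28. It had 13.2, 17.3 and 18.9 CPM with sorafenib, against 18.02, 15.1 and 24.3 CPM with water. The log2 fold change was -0.20 ± 0.24 (edgeR adjusted p = 0.706). At day 14 it had 13.1, 16.5 and 13.2 CPM with sorafenib, against 16.7, 20.9 and 15.6 CPM with water, with 1 sorafenib library above the lowest water library. The log2 fold change at day 14 was -0.31 ± 0.17 (edgeR adjusted p = 0.454). The ratio of Adra1a to Adrb1, per length, was 0.639 to 1.71 in sorafenib and 1.44 to 1.72 in water libraries at day 28, and 1.52 to 2.33 in sorafenib and 1.53 to 2.26 in water libraries at day 14.

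**Figure D4:**
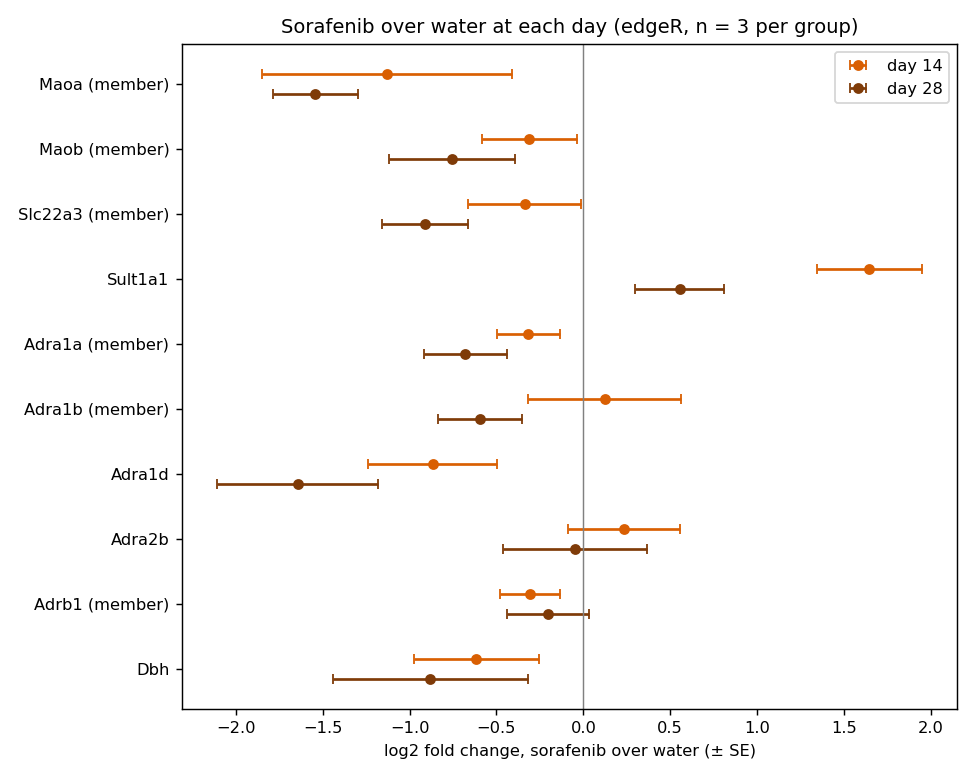
Log2 fold change (sorafenib over water, ± SE, edgeR, 3 libraries per group) at day 14 and day 28 for the 6 members and 4 related genes. At day 28 all members lie below 0, from Maoa at -1.54 to Adrb1 at -0.20, while Sult1a1 lies above 0 at both days.

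Of the other adrenergic receptors, Adra1d, the remaining alpha-1 receptor, fell in the average over both days. Of 6 listed receptors 3 were tested, and 1 was called lower, 0 higher, against 2.41% and 2% of all genes. Adra1d had 3.69, 7.14 and 8.05 CPM with sorafenib against 12.6, 16.03 and 5.93 CPM with water at day 14, and 3.79, 2.48 and 1.33 CPM with sorafenib against 5.76, 6.93 and 11.9 CPM with water at day 28. The groups overlapped at day 14 and not at day 28, where 11.9% of all genes were lower without overlap and the shallow library holds 3 counts. Its log2 fold change was -0.87 ± 0.37 at day 14, -1.64 ± 0.46 at day 28 and -1.28 ± 0.32 in the average (edgeR adjusted p = 0.341, 0.208 and 0.0419). The averaged call was lost in 11 of 18 alternatives, with a highest adjusted p of 0.111 when water day 14 replicate 3 was left out. An exon of Adra1d overlaps the antisense locus LOC120101665, and the counts do not use strand, so reads there cannot be assigned to either gene.

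The relative level of the alpha-1 receptors varied between libraries. At day 28 Adra1b exceeded Adra1d per length by 6.85 to 28.1 times in sorafenib libraries and 4.54 to 8.70 times in water libraries, and at day 14 by 3.58 to 6.28 times in sorafenib and 1.97 to 6.87 times in water libraries. Both pairs of ranges overlapped. Adra2b, an alpha-2 receptor, averaged 2.45 CPM over the 12 libraries, with a log2 fold change of 0.08 ± 0.24. Adra2a had 25 counts, Adra2c 65 and Adrb3 2 over all 12 libraries and were not tested.

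Downstream of the receptors, 2 of 21 genes for G proteins, adenylyl cyclases and protein kinase A fell in the average and 0 rose, with a median log2 fold change of -0.15. The shares over all genes were 2.41% called lower and 2% called higher. Prkacb, a catalytic subunit of protein kinase A, had 67.7 to 80.3 CPM with sorafenib against 97.1 to 103 CPM with water at day 28, and 89.3 to 95.05 CPM with sorafenib against 112 to 118 CPM with water at day 14. Its groups did not overlap on either day, and its averaged log2 fold change was -0.40 ± 0.09 (edgeR adjusted p = 0.026). Gnb1, a G protein beta subunit, also did not overlap on either day and had -0.40 ± 0.10 (edgeR adjusted p = 0.0423). Of all genes, 10.4% were lower without overlap at day 14 and 11.9% at day 28. The share for both days together is not given here. Prkacb passed in 10 of 18 alternatives and Gnb1 in 6, with highest adjusted p of 0.0871 and 0.129. Other genes of smallest p were Rapgef3, a cAMP-activated exchange factor, at 0.63 ± 0.15 and Prkar2a, a regulatory subunit of protein kinase A, at -0.61 ± 0.20 at day 14, and Adcy5, a main cardiac adenylyl cyclase, at -0.62 ± 0.20 at day 28 (edgeR adjusted p = 0.166, 0.228 and 0.246).

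On the Gq branch, 0 of 14 genes passed in the average, against 4.41% of all genes, with a median of -0.18. Gnaq, the Gq alpha subunit, had an averaged log2 fold change of -0.31 ± 0.09 with no overlap on either day (edgeR adjusted p = 0.0551), and Rgs5, a regulator of G protein signalling found in pericytes, had -0.36 ± 0.11 (0.0639). Genes lower without overlap made 10.4% of all genes at day 14 and 11.9% at day 28. At day 14 the smallest p belonged to Rgs2 at -1.18 ± 0.34 and the protein kinase C gene Prkca at -0.36 ± 0.12, and at day 28 to Rgs5 at -0.59 ± 0.14 and the inositol trisphosphate receptor gene Itpr1 at 0.45 ± 0.19 (edgeR adjusted p = 0.189, 0.238, 0.16 and 0.318).

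Of 7 receptor kinase and arrestin genes, 1 rose in the average and 0 fell, against 2% and 2.41% of all genes. The kinase gene Grk4 had 0.61 ± 0.16 (edgeR adjusted p = 0.0481), which passed in 7 of 18 alternatives with a highest adjusted p of 0.145. Grk5, a kinase that phosphorylates adrenergic receptors in the heart, had -0.38 ± 0.10 with no overlap on either day (edgeR adjusted p = 0.0555). Such a lower level without overlap was found in 10.4% of all genes at day 14 and 11.9% at day 28. Of 3 muscarinic receptor genes, which carry the opposing vagal signal, 2 were tested and 0 passed. Chrm2, the main one in heart, averaged 151 CPM with sorafenib and 234 CPM with water at day 28, with an averaged log2 fold change of -0.51 ± 0.20 (edgeR adjusted p = 0.134), and Chrm3 had 0.06 ± 0.39.

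The effect of sorafenib was not shown to differ between the days for any member. In the test of the difference itself, day 28 effect minus day 14 effect, 0 of 6 passed, with 0% of 18174 genes called, and the adjusted p was 0.999 for each with edgeR. No member had an unadjusted p below 0.05, where 4.42% of all genes did, and DESeq2 called 0 of 6, against 0.0495% of all genes. The log2 differences were -0.45 ± 0.74 for Maoa, -0.50 ± 0.45 for Maob, -0.39 ± 0.33 for Adra1a, -0.75 ± 0.54 for Adra1b, 0.08 ± 0.30 for Adrb1 and -0.61 ± 0.44 for Slc22a3. The SE of each bounds what this design could show, and 5 of 6 signs were below 0, against 52.1% of all genes.

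In water hearts the members were also compared over time, day 28 against day 14, where rat age and the handling of the separate day sets cannot be told apart. None of 6 passed with edgeR or DESeq2, against 8.51% and 13.9% of all genes, and none had an unadjusted p below 0.05, against 24.5%. Over all genes 2.7% were called lower and 5.8% higher, and 53.5% were below 0, as were 2 of 6 members. The log2 fold change of Maoa was 0.25 ± 0.52 (edgeR adjusted p = 0.811). Its day 28 water libraries, at 329, 289.9 and 316 CPM, lay between the high day 14 library of 585 CPM and the other day 14 libraries of 104 and 99.2 CPM. Without water day 14 replicate 2 the Maoa value was 1.60 ± 0.26 and passed (edgeR adjusted p = 0.00693), and without replicate 3 or replicate 7 of that group it was -0.14 or -0.15. The other members had -0.33 ± 0.30 for Maob, -0.12 ± 0.23 for Adra1a, 0.57 ± 0.38 for Adra1b, 0.11 ± 0.21 for Adrb1 and 0.18 ± 0.30 for Slc22a3.

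The marker sums that did not overlap at day 28 overlapped at day 14, at 883 to 941 CPM with sorafenib and 762 to 908 CPM with water for the smooth muscle and pericyte list, and 4.34 to 5.74 CPM with sorafenib and 5.44 to 7.51 CPM with water for sympathetic neurons. Abcc9 averaged 529 CPM in both groups at day 14. On that day Acta2, Myh11, Tagln and Cnn1 were higher with sorafenib without overlap. Their log2 fold changes of 0.64 to 1.25 did not pass (edgeR adjusted p = 0.15 to 0.297). The share of all genes higher without overlap is not given here. At day 28 the log2 fold changes of Acta2, Myh11, Tagln and Cnn1 were 0.05 to 0.20. Those of Rgs5 and Kcnj8 were -0.59 and -0.96 without overlap at day 28, and none passed. Of the sympathetic neuron sum at day 28, Npy averaged 1.81 CPM with sorafenib and 3.72 CPM with water. Sums of the other lists overlapped between the groups at day 28. They were 1190 to 2680 CPM with sorafenib and 1810 to 2900 CPM with water for 6 fibroblast markers, 1160 to 1220 CPM with sorafenib and 1200 to 1290 CPM with water for 6 endothelial markers, and 63.3 to 157 CPM with sorafenib and 119 to 192 CPM with water for 6 myeloid markers. For 5 atrial markers they were 154 to 322 CPM with sorafenib and 25.2 to 307 CPM with water, and for 6 adipocyte markers 1780 to 3370 CPM with sorafenib and 2800 to 3910 CPM with water, most of it Lpl, which cardiomyocytes also express. Of defining markers, Sln was at 0 counts in all sorafenib day 28 libraries, Cidec in all sorafenib libraries and Adipoq in the sorafenib day 28 libraries. The shallow library, where 1 count was worth 0.826 CPM, is among these. Sln was scarce with water too, at a mean of 2.04 CPM and 14 to 93 counts per library at day 28. Of the 6 adipocyte markers only 2 had enough counts to test at day 28.

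In the average over both days, 7 markers passed, and all fell: Sln of the atrial list (-5.35), Kcnj8 of pericytes (-0.63), Lum of fibroblasts (-0.77), Emcn of endothelium (-0.54) and Adgre1, C1qa and C1qb of myeloid cells (-1.31, -1.23 and -0.98), with edgeR adjusted p from 0.0185 to 0.049. None of 8 cardiomyocyte, 4 tested sympathetic neuron or 2 tested adipocyte markers passed. Of all genes, 2.41% were called lower and 2% higher. Averaged fold changes were below 0 for 2 of 5 atrial, 4 of 8 smooth muscle and pericyte, 5 of 6 fibroblast, 4 of 6 endothelial and 6 of 6 myeloid markers. They were also below 0 for 7 of 8 cardiomyocyte, 3 of 4 tested sympathetic neuron and 2 of 2 tested adipocyte markers, against 50.8% of all genes. At day 28 they were below 0 for 8 of 8 cardiomyocyte, 6 of 6 fibroblast and 6 of 6 myeloid markers. For the endothelial list it was 4 of 6 and for smooth muscle and pericytes 4 of 8 at day 28, against 50.2% of all genes. The Sln value rests on 13 counts in the sorafenib day 14 libraries and 0 at day 28. Of 18 alternatives, Kcnj8 passed in 16, Lum in 15, Adgre1 in 11, Emcn in 8, C1qb in 5 and C1qa in 3, and Sln passed in 14 of 17. The part of any of these cell types in the member values was not tested.

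Across the 12 libraries, with each day centred on its mean, the log2 CPM of Slc22a3 was most alike that of Adra1b (Pearson r = 0.725), Adra1a (0.674) and Maoa (0.671), and Maoa and Adra1b were least alike (0.027). Each member was also compared with 10718 genes with a mean of 5 CPM or more, leaving out symbols that begin with LOC or RGD. Among these the closest to Maoa were Tapbp (0.92), which acts in antigen loading of MHC class I, the interferon-induced Ifi35 (0.896) and the chaperone gene Dnajb1 (0.884). Tapbp was also highest in water day 14 replicate 2, at 85.2 CPM against 35.8 to 53.2 CPM in the other 11 libraries. The closest to Maob were Rgs10 (0.971), Septin9 (0.969) and Olfml1 (0.959), and the closest to Slc22a3 were Dnajc27 (0.943), Mtf1 (0.941) and Zbtb9 (0.93). For the receptors they were Fgf16 (0.969), Snapc5 (0.964) and Mkks (0.964) for Adra1a, Rsrc1 (0.93), Nenf (0.917) and Stub1 (0.913) for Adra1b, and Lrrc41 (0.935), Dusp5 (0.918) and Mapk3 (0.91) for Adrb1. These correlations describe 12 points that share treatment groups and depth, with the shallow library among them, and carry no test.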

How the data were processed

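Per the labels' protocols, heart RNA depleted of ribosomal RNA was sequenced as paired reads. The deposited values are raw read counts per gene, made by the authors with featureCounts 2.0.1 on mRatBN7.2 in paired mode without strand, per the file headers, although the kit marks strand per the labels. STAR is named in the submitters' processing notes, version not given in the sources used here. The deposited exon length (in bases) served to give CPM per kilobase. Of the day 14 file, 2 count columns matched no sample and were not used.

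Group membership follows the titles. The test was that of edgeR 4.0.16 under R 4.3.3 (filterByExpr, TMM, robust quasi-likelihood fit, Benjamini-Hochberg adjusted p below 0.05 over all genes): each day in its own fit, and the average, the difference between days and the water groups over time in a fit of 4 groups. SE is the log2 fold change over the root of F. DESeq2 1.42.0 was an alternative, as were RLE normalization, no filter, a filter of 1 CPM in at least 3 libraries, a fit without robust dispersion, the joint fit, a replicate block and each library left out. Libraries within a group were checked and none was a copy of another. The procedure was tested on simulated data.

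The members, 7 pathway lists and 8 marker lists were chosen with earlier results of these data known. The naming rule was all 6 members, each listed gene past the threshold, otherwise the 2 of smallest p per list, and fixed related genes, some of which are not reported here; of the marker lists only genes past the threshold are printed. Likeness used log2 CPM with prior count 2 and left out symbols that begin with LOC or RGD. Promoters are RefSeq on GRCr8. Library totals and the precision they give stand in the results; the shallow library is the least precise.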

Additional observations from a re-analysis of the deposited data

How the results depend on the processing

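Under the alternatives to the day 28 test, the number of members past the threshold was 1 (Maoa) without a filter on low counts, 1 with DESeq2 and 1 with the replicate block, against 0 as reported, and it stayed 0 with each library left out. For the average of both days it was 2 with DESeq2 and 0 to 1 with a library left out. For water over time it was 0 to 1 with a library left out and 1 without water day 14 replicate 2 and sorafenib day 28 replicate 3 together, a setting chosen after seeing the data. At day 14 and for the difference between days it was 0 throughout. The cause of these moves was not tested.

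Signs changed only when a library was left out. Maoa at day 14 was 0.23 without water replicate 2 (range -1.52 to 0.23 over the libraries left out), and over time in water -0.14 and -0.15 without water day 14 replicates 3 and 7 (range -0.15 to 1.60). Adra1b at day 14 was -0.01, -0.06 and -0.19 without water replicate 2 and sorafenib replicates 6 and 7 (range -0.19 to 0.52). For Adrb1 the difference between days was -0.05, -0.07 and -0.10 without water day 14 replicate 3, water day 28 replicate 3 and sorafenib day 28 replicate 4 (range -0.10 to 0.28), and the change over time in water was -0.10 without water day 28 replicate 4 (range -0.10 to 0.26). All members were below 0 at day 28 and in the average in every alternative, Adrb1 by as little as -0.003 at day 28 without water replicate 4.

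Counts over all genes moved more. At day 14 they were 0 as reported, 87 without a filter, 438 with DESeq2, 4 in the joint fit and 0 to 27 with a library left out. At day 28 they were 0, 82, 279, 53 and 0 to 3. For the average, 801 as reported became 1836 with DESeq2, 361 without both libraries, and 35 (without sorafenib day 28 replicate 2) to 1562 (without sorafenib day 28 replicate 4) with 1 left out. The difference between days gave 0 as reported, 9 with DESeq2 and 1 without both libraries. Water over time gave 1546, 2332 with DESeq2, 811 without both and 558 at the lowest with 1 left out.

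The day 28 groups share replicate numbers 2, 3 and 4 in the labels. Same-numbered libraries correlated in their deviations at 0.105, 0.008 and 0.194, and differently numbered ones at -0.195 to 0.061. With 3 libraries per group these values cannot decide whether the numbers are pairs. The numbers were not taken as pairs in the main fit. With the replicate block Maoa was -1.60 ± 0.20 (edgeR adjusted p = 0.0201), 1 of 6 members passed and 108 genes passed. At day 14 the groups share 1 number, so no block was fitted.

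Depth limits the values of sorafenib day 28 replicate 3, where Maob has 7 counts, Slc22a3 9 and Adra1d 3. Without it the day 28 value was -0.93 for Maob, -0.95 for Slc22a3 and -0.47 for Adra1a.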

Other observations

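Between the water groups, day 28 against day 14, the edgeR fit of all 4 groups called 8.51% of 18174 genes. Of the pathway lists it called 1 of 9 tested genes of breakdown and uptake, 2 of 21 of G proteins, adenylyl cyclases and protein kinase A, 3 of 14 of the Gq branch, and 0 of 3, 6, 7 and 2 of the other receptors, synthesis and storage, receptor kinases and arrestins, and muscarinic receptors. Aldh2, a mitochondrial aldehyde dehydrogenase that acts on the aldehydes that monoamine oxidases make, rose by 0.96 ± 0.24 on the log2 scale (adjusted p = 0.0245), with 546 CPM at day 28 and 280.2 CPM at day 14. Gnas, the Gs alpha subunit, rose by 0.76 ± 0.21, Ppp1r1a, an inhibitor of protein phosphatase 1 that protein kinase A activates, by 1.62 ± 0.39, and Gna11, an alpha subunit of the Gq family, by 0.69 ± 0.17 (edgeR adjusted p = 0.0387, 0.0212 and 0.0246). Of regulators of G protein signalling, Rgs5 rose by 0.63 ± 0.15 and Rgs4 fell by 0.74 ± 0.21 (edgeR adjusted p = 0.018 and 0.0408). Npy, a sympathetic co-transmitter, rose by 3.07 ± 0.56 (edgeR adjusted p = 0.00491), with 3.72 CPM at day 28 and 0.438 CPM at day 14, and passed in all 18 alternatives, while the others passed in 9 (Gnas) to 15 (Ppp1r1a). Of the marker lists Tnnt2, Tnni3, Myh11 and Cnn1 also rose in this comparison, by 1.23, 1.47, 0.97 and 1.86, and passed in 18, 18, 5 and 11 of 18 alternatives. They are 2 of 8 cardiomyocyte markers and, with Rgs5, 3 of 8 smooth muscle and pericyte markers, against 5.8% of all genes called higher. Fold changes were below 0 for 0 of 8 cardiomyocyte and 3 of 8 smooth muscle and pericyte markers. Rat age and the handling of the day sets cannot be told apart here.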
